A study of Bos taurus with 16 samples.

Results

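OXTR, the oxytocin receptor, was read by 1 probe set of the 24128 on a bovine Affymetrix expression array, and this was every probe set whose only gene symbol in the platform annotation is OXTR (NCBI gene 281371). It is 1 of the 9155 genes the annotation names in this way. Its level was followed in 11 pools of endometrium and 5 pools of blastocysts. The pools came from 49 superovulated cows whose uterine lining was sampled with a cytobrush, a small brush that is turned against the endometrium and lifts surface cells. Brush samples were taken on day 0 of the cycle, 2 hours before insemination, and on day 7, just before the embryos were flushed out. A cow was put in the healthy group (HE) where no polymorphonuclear neutrophils were counted in her sample, and in the subclinical endometritis group (SE) where any were counted. Endometrium was pooled by status and day into HE day 0 (n = 3 pools), SE day 0 (n = 3), HE day 7 (n = 2 analysed here) and SE day 7 (n = 3). Blastocysts were pooled by their donors' status in lots of 10 embryos, into HE (n = 2 analysed here) and SE (n = 3). All groups share the superovulation treatment, and the labels give no breed, age or number of cows per pool, nor whether pools of both days held the same cows. Status was called separately at each sampling, so HE on day 0 and HE on day 7 need not be the same animals. Each p-value below measures the spread between pools.

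Oxytocin is a short peptide made by the hypothalamus and, in cattle, by the corpus luteum. Its receptor is a seven-transmembrane protein that acts mainly through G proteins of the Gq class, phospholipase C and the release of stored calcium. In the cow endometrium the receptor is known to be abundant at oestrus, scarce while progesterone is high, and abundant again at luteolysis, when oxytocin drives pulses of prostaglandin F2 alpha that end the life of the corpus luteum. Interferon tau from the conceptus holds the receptor down in early pregnancy, later than the stages sampled here.

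The values are log2 signals after GCRMA, the background correction and normalization used by the submitters, and a probe set was tested in a tissue where it lay above 4 on at least 2 of its arrays. That left 13421 probe sets in endometrium and 11014 in blastocysts. The median signal of an array was 4.18 to 4.30 in endometrium and 3.08 to 3.12 in blastocysts, so no level was compared between the tissues. The difference between the 3′ and 5′ GAPDH controls, a reading of how far transcripts were truncated after 2 rounds of amplification, was 0.03 to 0.58 on day 0, 0.22 to 0.57 on day 7 and 4.97 to 5.85 in blastocysts. Other controls differed more in endometrium. The cyclophilin difference was 0.64 to 1.165 on day 0 and 0.85 to 1.23 on day 7, and that of EIF4E 3.70 to 4.27 and 3.67 to 4.52. Brush samples carried the epithelial marker EPCAM at 13.19 to 14.55 over the pools, and the blastocyst arrays carried the trophoblast product IFNT2 and the pluripotency factor POU5F1 at up to 10.8 and 10.97.

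OXTR was high in every endometrium pool of day 0 and much lower in every pool of day 7. The 3 HE day 0 pools gave log2 signals of 12.55, 12.67 and 12.26 for OXTR, and the 3 SE day 0 pools gave 12.59, 12.17 and 12.19. On day 7 the OXTR signal was 6.22 and 7.48 in the 2 HE pools, and 5.20, 6.83 and 7.25 in the 3 SE pools. The 6 pools of day 0 lay within 0.51 of each other, and the lowest of them was 4.69 above the highest pool of day 7, a 25.8-fold gap with no overlap. All 5 pools of day 7 lay below all 6 of day 0 for 22.8% of the probe sets tested.

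**Figure D1:**
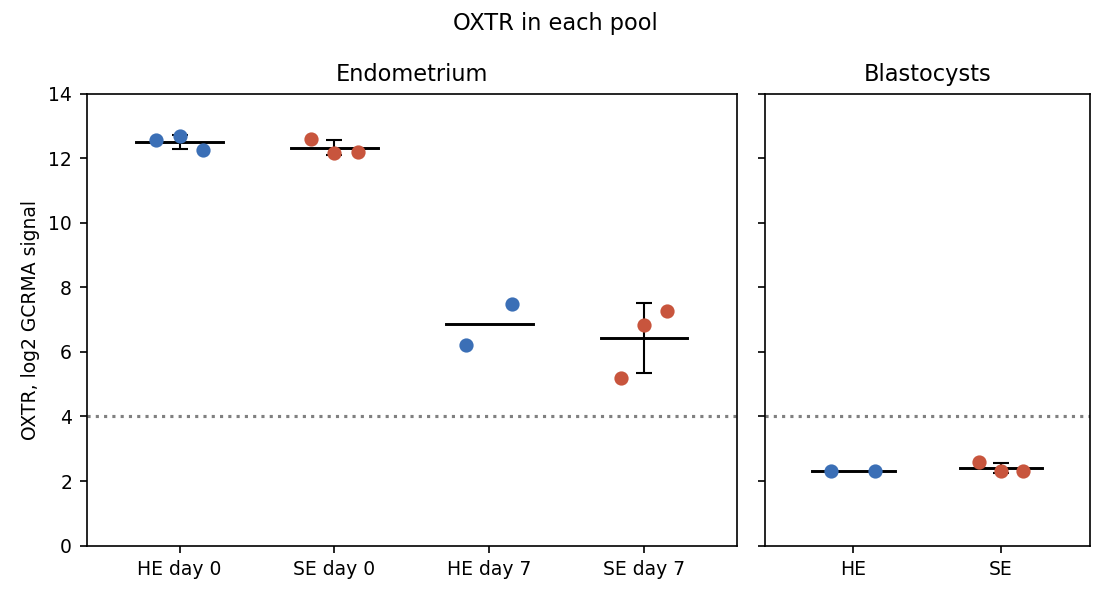
OXTR log2 signal in each pool (points), with the group mean (horizontal line) and, for groups of 3, the SD (bars), in endometrium by status and day and in blastocysts by donor status. The dotted line is the filter at 4. The day 0 pools sit between 12.17 and 12.67, the day 7 pools between 5.20 and 7.48, and the blastocyst pools below the filter.

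OXTR fell between the days in both status groups. In HE the mean OXTR level went from 12.49 ± 0.21 (SD, n = 3) on day 0 to 6.85 ± 0.89 (SD, n = 2) on day 7. This was a limma log2 difference of -5.65 with a standard error of 0.54 and an adjusted p of 2.6e-05, or 50.1-fold lower with a 95% confidence interval of 21.6 to 116-fold. In SE the mean OXTR level went from 12.32 ± 0.24 (SD, n = 3) to 6.43 ± 1.09 (SD, n = 3), a limma log2 difference of -5.89 with a standard error of 0.49 and an adjusted p of 6.79e-06. The interval of the fall in SE was 27.99 to 126-fold around 59.3-fold. The background for such calls is wide, since 45% of all probe sets passed the threshold between the days in HE (23.2% lower, 21.8% higher) and 50.1% in SE (24.1% lower, 26% higher).

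Averaged over HE and SE, OXTR fell by 5.77 on the log2 scale (standard error 0.36, limma adjusted p = 5.36e-07), a 54.5-fold fall with an interval of 31.0 to 95.8-fold. In that contrast 61.9% of probe sets passed the threshold, 31.1% with a fall and 30.7% with a rise, so a call is common here and the size of the OXTR change is not. Of all tested, 33 of the 13421 probe sets (0.246%, OXTR included) fell as far or farther, and by gene 20 of 6810 (0.294%). An exact permutation test of the OXTR values alone, exchanging days within status over 200 arrangements, gave a two-sided p of 0.005, the smallest it can give.

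**Figure D2:**
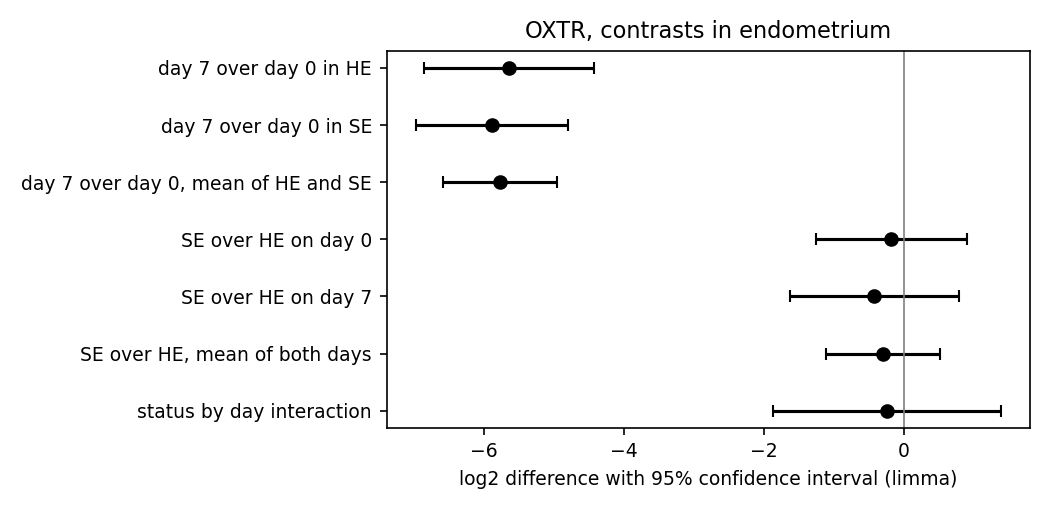
Log2 difference of OXTR for each endometrium contrast (points) with its 95% confidence interval (bars), from the limma fit over 11 pools. The 3 day contrasts lie between -5.89 and -5.65 with intervals far from 0, and the intervals of the 3 status contrasts and of the interaction include 0.

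OXTR did not differ between SE and HE beyond the spread between pools on either day. On day 0 the log2 difference, SE minus HE, was -0.18 with a standard error of 0.49 (limma adjusted p = 0.955), and on day 7 it was -0.42 with a standard error of 0.54 (limma adjusted p = 1.00, unadjusted p = 0.456). The 95% intervals still leave room for OXTR to be up to 2.40-fold lower or 1.88-fold higher in SE on day 0, and up to 3.10-fold lower or 1.73-fold higher on day 7. These intervals rest on 1 estimate of the spread shared by both days, though OXTR varied more between pools on day 7. Fitted on the arrays of the 2 groups alone, the same differences had a standard error of 0.18 on day 0 and 0.70 on day 7. Over both days the difference was -0.30 with a standard error of 0.36 (limma adjusted p = 0.936), with bounds of 2.16-fold lower and 1.43-fold higher. Exchanging status within day gave an exact permutation p of 0.555, two-sided over 200 arrangements. The status groups overlapped on both days, and the sign of the day 7 value rested on single pools, turning to 0.21 without HE day 7 replicate 2 and to 0.19 without SE day 7 replicate 1. The value over both days turned to 0.016 and 0.0084 without the same pools.

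The status contrasts were sparse in calls for the whole array as well. 3 of 13421 probe sets (0.0224%) passed on day 0 and 0 passed on day 7, over both days or in the status by day interaction by limma, with 1020 (7.6%), 477 (3.55%), 805 (6%) and 526 (3.92%) at an unadjusted p under 0.05. The day 0 count rested on single pools and ran from 0 to 11 as they were left out, with 11 without SE day 0 replicate 1. The interaction asks whether the fall between the days differed with status. For OXTR it was -0.25 with a standard error of 0.73 and an interval of -1.87 to 1.38 (limma adjusted p = 1.00, unadjusted p = 0.744), so a fall up to 3.66-fold deeper in SE than in HE lies within the interval. It turned to 0.39 without HE day 7 replicate 2 and to 0.37 without SE day 7 replicate 1. Counts of neutrophils set the status groups, and the 4 neutrophil markers measured had a mean signal of 5.79 to 8.93 in HE and 7.85 to 11.19 in SE on day 0, and of 4.73 to 6.58 and 5.44 to 6.99 on day 7. Those ranges overlapped between HE and SE on each day.

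By mean OXTR level the groups stood in the order HE day 0, SE day 0, HE day 7, SE day 7. The pair at day 0 and the pair at day 7 did not differ beyond their spread, and the step between SE day 0 and HE day 7 was the only one without overlapping pools.

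The OXTR signal varied far more among the pools of day 7 than among those of day 0. The SD within groups was 0.22 on day 0, near the median of 0.24 over all probe sets tested, and 1.03 on day 7, against a median of 0.23. Only 1.72% of probe sets had a day 7 SD as large. The ratio of the SDs was 4.58 for OXTR, with 2.50% of probe sets at or above it and a median of 0.96, and these SDs rest on 4 and 3 degrees of freedom. The 5 pools of day 7 spanned 2.28 on the log2 scale, or 4.87-fold, and the 6 of day 0 spanned 1.42-fold. Much of this rests on SE day 7 replicate 1, without which the other 4 pools spanned 2.40-fold and the day 7 SD was 0.66, with 5.45% of probe sets at or above it. This pool, with the lowest OXTR signal, also had the largest GAPDH 3′ minus 5′ difference of day 7 at 0.57, against 0.22 to 0.39 in the other 4. Its cyclophilin and EIF4E differences, 0.89 and 4.14, lay within the range of the other day 7 pools (0.85 to 1.23 and 3.67 to 4.52). The part of RNA quality in the OXTR spread was not tested. Without that pool and SE day 0 replicate 2, the pair with the largest GAPDH differences, the fall averaged over status was -5.50.

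Epithelial markers fell between the days in the same pools. Of 9 epithelial markers 8 were measured, 6 fell and 1 rose, where 31.1% of all probe sets fell and 30.7% rose. The median change was -1.58 against -0.02 over all probe sets. The keratins KRT7, KRT18 and KRT19, filaments of simple epithelia, fell by 3.54, 2.38 and 2.19 on the log2 scale, the tight junction protein CLDN4 by 1.69, the surface mucin MUC1 by 1.47 and the adhesion molecule EPCAM by 0.95. The junction protein CLDN3 differed by -0.15 (limma adjusted p = 0.227), the adhesion protein CDH1 rose by 1.05, and KRT8 did not pass the filter. The mean signal of the 8 markers was 11.39 to 11.94 on day 0 and 9.92 to 10.35 on day 7. OXTR minus this marker mean still differed between the days by -4.51 in HE and -4.19 in SE. Fewer epithelial cells on the brush and less OXTR RNA per cell cannot be told apart in pooled bulk samples.

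Markers of the underlying stroma overlapped between the days, with a mean over 9 measured of 10 markers of 7.01 to 8.94 on day 0 and 7.08 to 8.999 on day 7. Of these 9, 2 rose and 0 fell, with a median of 0.06, and OXTR minus the stromal mean differed by -5.84. Myometrial smooth muscle is the other uterine layer known for this receptor, and its markers were measured only in part. Of 9 smooth muscle markers 3 were measured, of which the actin ACTA2 fell by 2.62, TAGLN differed by -0.10 and MYLK by 0.61, and MYH11, CNN1, DES, LMOD1 and SMTN reached no more than 3.11 on any endometrium array. Of the 4 neutrophil markers measured 1 fell, with a median of -1.77, and the day ranges of their mean overlapped. Of 6 macrophage markers measured 3 rose and 1 fell, with CD14, a receptor for bacterial endotoxin, at -3.20 and LAPTM5 at 1.20. Of 6 lymphocyte markers 3 rose and 1 fell, with the T cell genes CD2, CD3E and ZAP70 at 1.39, 1.55 and 1.62 and LCK at -0.86. The background for the counts of this paragraph is 61.9% of all probe sets past the threshold, 31.1% lower and 30.7% higher. The macrophage and lymphocyte counts were near that share. CLDN5, the 1 endothelial marker of 6 that was measured, was below the filter on day 0 (2.35 to 2.42) and at 4.90 to 7.20 on day 7. The other endothelial markers, PECAM1, CDH5, VWF, KDR and TEK, reached no more than 3.67 on any endometrium array of either day. The mean of the macrophage markers was 5.52 to 6.24 on day 0 and 5.62 to 6.42 on day 7, and that of the lymphocyte markers 5.87 to 7.06 and 5.86 to 7.90, with overlap. Of 4 ciliated cell markers measured 1 fell, and the only erythrocyte marker measured, GYPC, rose. The part of these cell types in the fall of OXTR was not tested.

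**Figure D3:**
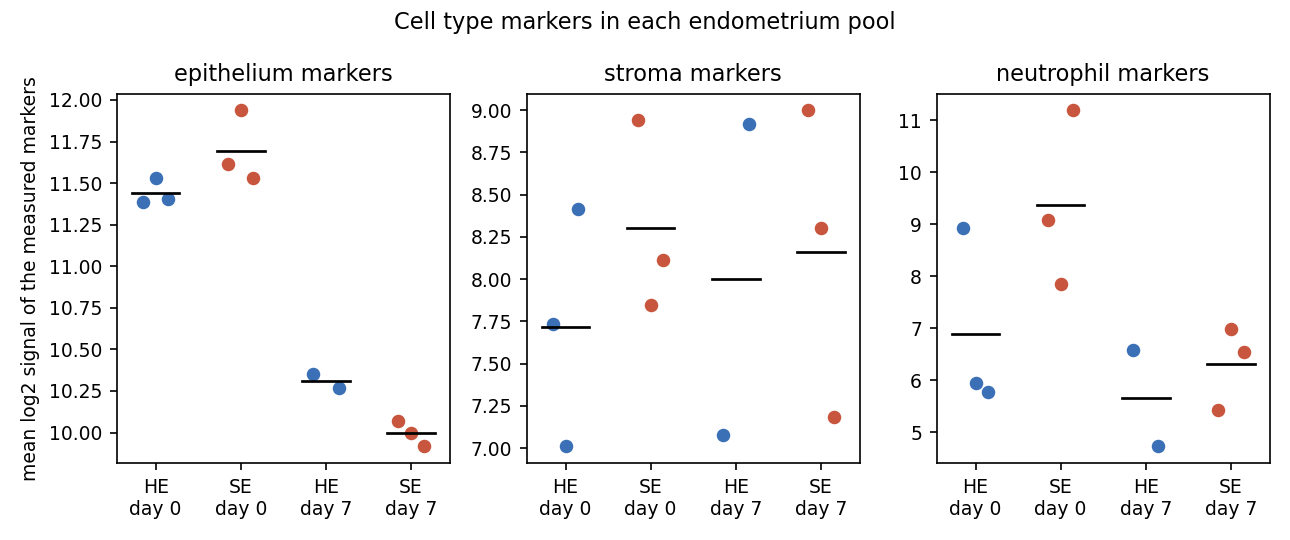
Mean log2 signal of the measured markers of epithelium (8 genes), stroma (9) and neutrophils (4) in each endometrium pool (points), with group means (lines). The vertical axes differ between panels. The epithelial mean is 11.39 to 11.94 on day 0 and 9.92 to 10.35 on day 7, while the stromal and neutrophil means overlap between the days.

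In blastocysts OXTR lay at the floor of the array. Its log2 signal was 2.31 in both HE pools and 2.58, 2.31 and 2.31 in the SE pools, and the lowest signal of any probe set on these arrays was 2.20. The same value, within 0.0001, on at least 4 of the 5 arrays was seen for 10819 probe sets (45.0%), OXTR among them, and 97.3% of those values lay at or below the filter. The SE minus HE difference of the means was 0.09 and was not tested, since the probe set did not pass the filter. Of the 11014 probe sets that passed in blastocysts 0 differed between SE and HE in limma, with 1029 (9.34%) at an unadjusted p under 0.05. A transcript of low abundance is not detectable at this floor. The GAPDH and EIF4E controls differed between their 3′ and 5′ probe sets by up to 5.85 and 11.2 on blastocyst arrays.

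The other genes of oxytocin signalling were taken as 7 lists with 115 genes, of which 79 were named on the array and 63 measured in endometrium. Averaged over status, 18 of the 63 rose from day 0 to day 7 and 26 fell, so that 69.8% passed against 61.9% of all probe sets. The median change was -0.14 against -0.02. All pools of day 7 lay below all pools of day 0 for 22 of the 63, and above them for 15, beside 22.8% and 22.7% of all probe sets. By status alone 37 passed in HE (16 rose, 21 fell), or 58.7% against 45% of all probe sets, and 40 in SE (17 rose, 23 fell), or 63.5% against 50.1%. Each gene counts by its tested probe set of highest mean, so these shares set genes beside all probe sets, and their difference was not tested. For 9 of the 63 all pools of 1 day lay at or below the filter (PLCB1, ORAI1, GRK5, RGS5, RGS16, PTGES, PTGDS, PTGER2 and ESR2). Such genes were measured only through the other day, and the size of their difference is not exact and may be understated. ITPR3, PRKCB, PTGIS and IRF2 had day 0 medians of 2.89, 3.91, 3.86 and 3.71, also below the filter. Their rises are thus measured in part from background. Between SE and HE 0 of 63 passed in limma on either day, over both days or in the interaction, with 8, 0, 6 and 2 at an unadjusted p under 0.05. Without SE day 0 replicate 1 the prostaglandin synthase PTGES passed on day 0, higher in SE by 2.31 (limma adjusted p = 0.0059), against 1.69 (limma adjusted p = 0.55) with all pools. PTGES had a day 0 median of 3.57, below the filter, and was tested only through its few high day 0 pools. That call therefore does not establish a status difference.

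The ligand and the sister receptors were not measurable. Of oxytocin itself (OXT), the related hormone vasopressin (AVP) and its receptors AVPR1A, AVPR1B and AVPR2, the highest signal on any endometrium array was 2.14, below the filter. LNPEP, the peptidase that degrades oxytocin, is not named in the annotation.

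Of the G protein, phospholipase C and calcium list 20 of 28 genes were measured, 3 rose and 9 fell, with a median of -0.23. The background for the counts of each list is 61.9% of all probe sets past the threshold, 31.1% lower and 30.7% higher. In this list, as in the kinase and desensitisation lists below, the part that passed was near that share. RCAN1, an inhibitor of the calcium-activated phosphatase calcineurin, changed about as much as OXTR. Its signal was 12.71 to 13.16 on day 0 and 6.85 to 7.82 on day 7, a log2 difference of -5.69 with a standard error of 0.17 (limma adjusted p = 6.5e-09), and it fell in HE (-5.56) and in SE (-5.82). ATP2B1, a calcium pump of the plasma membrane, fell by 2.02 by each of its 2 probe sets, and the inhibitory G protein subunit GNAI1 by 1.90. ITPR3, a calcium channel of the endoplasmic reticulum, rose by 3.49 (adjusted p = 4.42e-05 by limma), from 2.47 to 5.03 on day 0 to 6.38 to 7.10 on day 7. CAMK2G, a calcium-dependent kinase, rose by 0.55 and the calcineurin subunit PPP3CB by 0.60, but the other PPP3CB probe set differed by 0.05 (limma adjusted p = 0.613). PLCB1, a phospholipase C that Gq proteins activate, differed by 0.94 and missed the threshold at a limma adjusted p of 0.051, with 1.48 (0.00218) without HE day 7 replicate 1 and 1.09 (0.0367) without SE day 7 replicate 3, and 0.94 (0.0488) with median centring. PLCB1 lay at 2.58 to 2.66 on day 0 and at a median of 3.09 on day 7, below the filter. It was tested only through its few high day 7 pools, in 9 of the 11 fits with a pool left out. In 7 of those 9 fits it still missed the threshold. The PLCB1 calls therefore do not establish a rise. GNAQ, the Gq subunit that gives the class its name, is not named in the annotation.

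Of the protein kinase C and MAP kinase list 11 of 21 genes were measured, 2 rose and 5 fell, with a median of -0.23. SPRY2, a feedback inhibitor of receptor kinase signalling, fell by 2.87 (limma adjusted p = 3.35e-07), and its 8.18 to 9.57 on day 0 did not overlap its 5.80 to 6.34 on day 7. Kinase isoforms moved in both directions. PRKCD fell by 1.10 and PRKCZ by 0.88, while PRKCI rose by 0.87 and PRKCB by 1.45 with ranges that touched at 4.35, and the other PRKCB probe set differed by 0.57 (limma adjusted p = 0.052).

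Of the genes that desensitise and recycle receptors or switch off G proteins 11 of 16 were measured, 4 rose and 3 fell, with a median of -0.004. GRK5, a kinase that marks active receptors for uncoupling, lay at 5.46 to 6.97 on day 0 and below the filter on day 7 (2.02 to 3.11), a log2 difference of -3.71. RGS16, which speeds up the switching off of G proteins, went from 5.50 to 6.79 to below the filter (2.93 to 3.29), a log2 difference of -2.98. The small GTPase RAB11A, which returns receptors to the cell surface, fell by 1.05. The caveola protein CAV1 rose by 3.82 (limma adjusted p = 1.09e-04), from 5.93 to 8.93 on day 0 to 10.68 to 11.18 on day 7, and its other probe set by 3.68. RGS3 rose by 1.82. RGS5 rose by 1.77 from a day 0 level below the filter, with overlapping ranges and a value of 1.04 without HE day 7 replicate 2 (limma adjusted p = 0.0412). RGS2 is not named in the annotation.

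The prostaglandin list, the output of receptor activation at luteolysis, had 9 of 19 genes measured, of which 5 rose and 3 fell, with a median of 1.57. PTGS2, the inducible cyclooxygenase, fell by 2.15 (limma adjusted p = 4e-04), from 7.20 to 8.998 on day 0 to 5.57 to 7.03 on day 7, and its other probe set by 2.24. PTGER2, a prostaglandin E2 receptor, lay at 6.81 to 8.05 on day 0 and below the filter on day 7 (2.87 to 3.95), a log2 difference of -3.82. PTGES3, a widely expressed prostaglandin E synthase, fell by 0.38. PTGIS, the prostacyclin synthase, rose by 5.41 (limma adjusted p = 2e-08), from 3.80 to 5.07, with a median of 3.86 below the filter, to 9.43 to 9.58. HPGD, which inactivates prostaglandins, rose by 5.29 and by 5.63 in its other probe set, and PTGER4, another prostaglandin E2 receptor, by 4.57. AKR1B1, an aldose reductase with prostaglandin F synthase activity in bovine endometrium, rose by 1.70. PTGES, the inducible prostaglandin E synthase, differed by -0.76 and missed the threshold (limma adjusted p = 0.0593), but passed at -1.07 without SE day 0 replicate 1 (limma adjusted p = 9.23e-05). By status PTGES differed by 0.12 in HE (limma adjusted p = 0.861) and by -1.64 in SE (limma adjusted p = 0.00902), and it was among the genes that passed no interaction test. Its signal was at most 3.50 on day 7 and had a day 0 median of 3.57, both below the filter. PTGES reached the test in 9 of the 11 fits with a pool left out. Its calls thus set a few high day 0 pools beside background. PTGFR, the prostaglandin F receptor, and the prostaglandin transporter SLCO2A1 reached no more than 2.76 and 2.29, and PLA2G4A is not named in the annotation.

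Steroid receptors, through which oestradiol and progesterone are known to set the level of OXTR, were read only in part. Of 15 genes in the list 7 were named on the array and 5 were measured, of which 2 rose and 2 fell, with a median of 0.29. The main receptors of both hormones, ESR1 and PGR, were the 2 below the filter, at no more than 1.77 and 2.30 on any endometrium array. Each was read by 1 probe set, so these low signals do not show that the RNA was absent. ESR2, the other oestrogen receptor, was below the filter in every pool of day 0 (2.20 to 2.77) and at 6.53 to 7.08 on day 7, so its log2 difference of 4.44 is measured from background. The coactivator NCOA1 rose by 1.96, with its 3 other probe sets between 1.10 and 2.46. The glucocorticoid receptor NR3C1 fell by 1.11, and PGRMC1, a membrane progesterone receptor component, by 0.32 with overlapping ranges, a call lost on leaving out any of 6 pools (HE day 0 replicate 1, SE day 0 replicate 3, either HE day 7 pool, and SE day 7 replicates 2 and 3) at -0.33 to -0.27 (limma adjusted p from 0.0503 to 0.0735).

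Of the interferon receptor and its signal transducers, through which the conceptus is known to act on OXTR later in pregnancy, 7 of 10 genes were measured, 2 rose and 4 fell, with a median of -0.57. The receptor chains IFNAR2 and IFNAR1 fell by 1.81 and 1.07, the latter with overlapping ranges, and the kinase JAK1 by 0.65. IRF2, a transcription factor linked to OXTR repression in ruminant endometrium, rose by 1.51 (limma adjusted p = 3.35e-04), from 3.19 to 4.46 to 4.53 to 5.55, and the transducer STAT2 by 0.28, a call lost on leaving out any of 8 of the 11 pools (all but HE day 0 replicate 2, SE day 0 replicate 3 and SE day 7 replicate 2) at 0.23 to 0.30 (limma adjusted p from 0.0651 to 0.118). That call was also lost with quantile normalization, median centring, an intensity trend or array weights (limma adjusted p from 0.0534 to 0.0785). IRF1 is not named in the annotation.

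**Figure D4:**
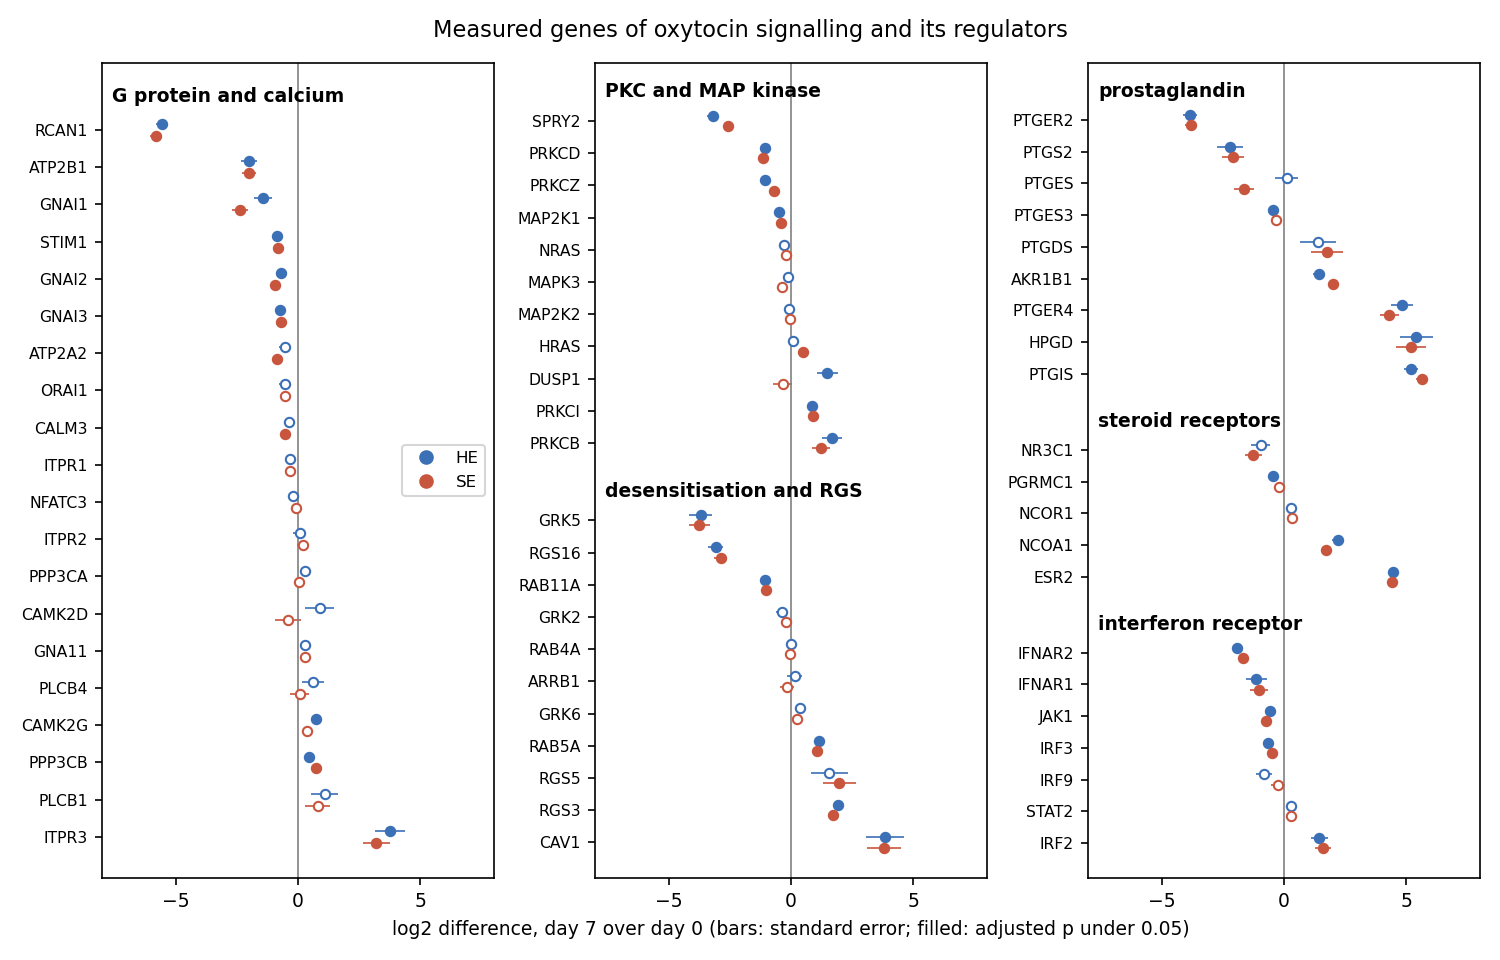
Log2 difference of day 7 over day 0 for the 63 measured genes of oxytocin signalling, in HE (blue) and SE (red), with standard errors as bars and filled points where the limma adjusted p of that contrast was under 0.05. RCAN1 is lowest at -5.56 and -5.82, and the highest values are PTGIS and HPGD at 5.18 to 5.64.

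Genes whose pattern was most like that of OXTR were ranked by Pearson's r over the 11 endometrium pools, among 8642 other tested probe sets with a single symbol. The pools fall into 2 clusters by day and were used for both the contrasts and the ranking, so r is a measure of likeness and mainly follows the day separation. At r of at least 0.98 stood 53 probe sets, and at -0.98 or below 37. The 8 highest were PAFAH2, a phospholipase that breaks down platelet-activating factor and oxidised lipids (0.994), FRMD4A (0.994), the fatty acid oxidation enzyme ACADVL (0.992), the pyruvate dehydrogenase kinase PDK3 (0.992), MPZL1 (0.990), the serpin SERPINB8 (0.989), NIPSNAP2 (0.988) and the cysteine protease inhibitor CST6 (0.988). Their log2 differences between the days ran from -4.45 for MPZL1 to -1.24 for ACADVL, each smaller in size, as measured, than that of OXTR. On day 7 MPZL1 (3.88 to 4.79), PDK3 (3.66 to 5.55) and SERPINB8 (3.01 to 4.64) reached below the filter. FRMD4A lay below it in every day 7 pool (2.75 to 3.56). The falls of these genes may be understated. The 8 names hold loosely, since 0 of them stayed among the 8 highest by Spearman's rho and 2 without SE day 7 replicate 1. Of the 8, PAFAH2 had the closest course after each group mean was taken off, with a within-group r of 0.933.

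The 5 lowest were the actin-binding protein SYNPO (-0.994), the glycolytic enzyme PFKM (-0.994), the carbonic anhydrase CA13 (-0.989), DTNB (-0.989) and FILIP1 (-0.989). All 5 lay below the filter in every pool of day 0, so their rises, such as 5.60 for CA13, are measured from background. The same holds for FRMD4A on day 7. With group means taken off, the 5 highest were MIGA2 (0.954), ATG4B (0.954), DPAGT1 (0.953), the drug and lipid exporter ABCC1 (0.946) and AP3M1 (0.941). Of these 5 DPAGT1 had a positive pooled r (0.712) and the other 4 a negative one, with AP3M1 rising by 1.95 between the days, whereas PAFAH2 was high by both measures. Since OXTR varied chiefly on day 7, the within-group values rest mostly on 5 pools.

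**Figure D5:**
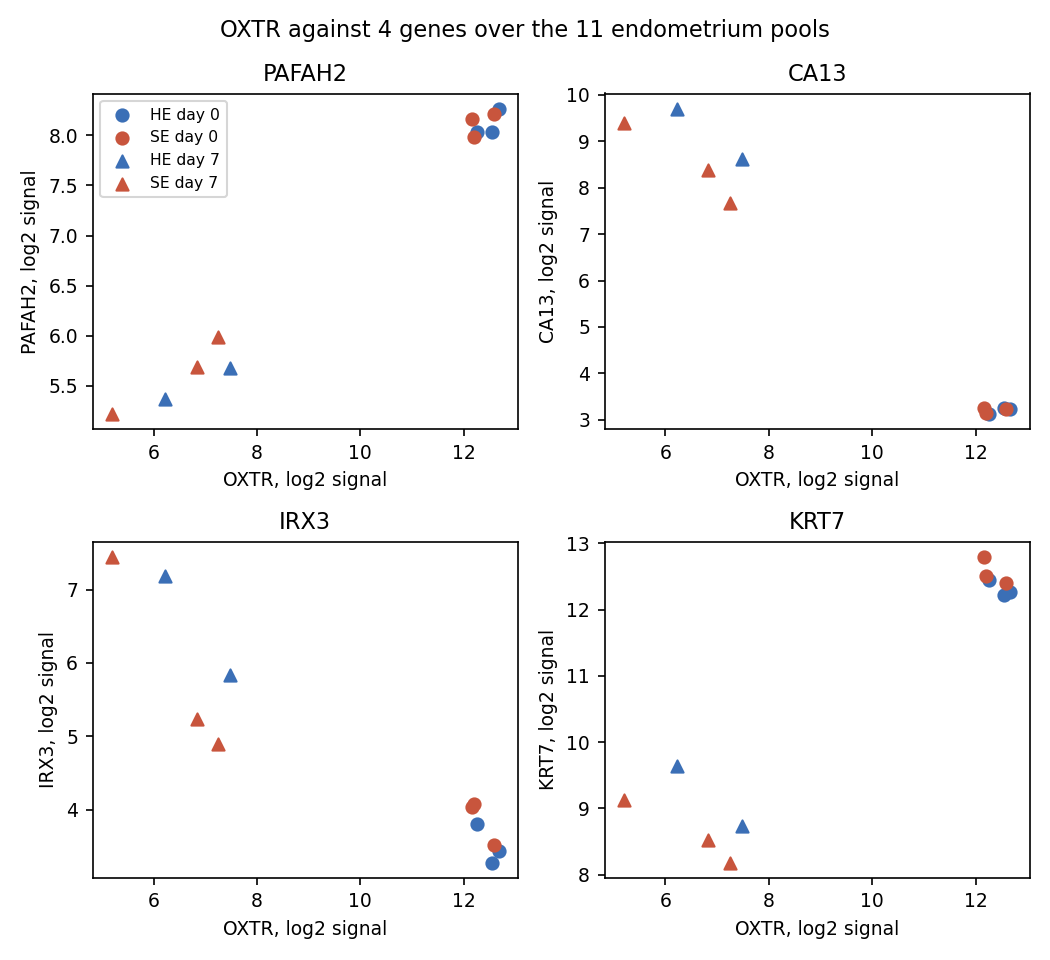
Log2 signal of PAFAH2, CA13, IRX3 and KRT7 against that of OXTR in each of the 11 endometrium pools, with circles for day 0, triangles for day 7, blue for HE and red for SE. PAFAH2 falls with OXTR and rises with it among the day 7 pools, CA13 and IRX3 run opposite to it, and KRT7 is higher on day 0 but among the day 7 pools lies lower where OXTR is higher.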

How the data were processed

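Per the submitters' processing notes the deposited values are log2 signals from GCRMA, and limma was used. The sources used here do not state whether endometrium and blastocyst arrays were normalized together. From these values, group means were fitted with limma 3.58.1 in R 4.3.3 (lmFit and eBayes), with the 11 endometrium and the 5 blastocyst arrays apart, over probe sets above log2 4 on at least 2 arrays of the tissue. P-values were adjusted by Benjamini-Hochberg over all these probe sets, at a threshold of 0.05. The scripts were tested on simulated data. A gene is given by its tested probe set of highest mean. Of 24128 probe sets 13292 carried 1 symbol, 86 several and 10638 none, with 112 controls. Named are up to 3 genes per list and direction with the largest day change past the threshold, a few genes by name whatever their value, and the genes ranked by likeness. The members, lists and names were chosen with earlier results of these data known. Pool numbers were checked for pairing between groups by correlating the deviations of same-numbered pools, and no steady correlation was seen. With 2 or 3 pools per group this check cannot tell whether pools of different groups shared cows. Alternatives covered normalization, filter, model, replicate block and pools left out. Genome coordinates and sequences were not used here.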

Additional observations from a re-analysis of the deposited data

How the results depend on the processing

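OXTR fell between the days in every limma alternative run. With pools left out in turn its log2 difference was -6.28 to -5.02 in HE, -6.30 to -5.28 in SE and -6.08 to -5.45 averaged over status. Set against the mean of the epithelial markers, a reference chosen after seeing the data, it was -4.51, -4.19 and -4.35. Deviations from group means of same-numbered pools correlated at -0.27 to 0.24, which cannot settle pairing with 2 or 3 pools per group. The fit with the replicate block gave -5.57, -5.89 and -5.73 for these contrasts and changed no call for OXTR. The OXTR status contrasts passed no threshold in any fit. The day 0 value kept its sign (-0.76 to -0.087), and the others turned. The day 7 value was -1.05 to 0.21 with pools left out and 0.19 without the 2 endometrium pools of largest GAPDH 3′ minus 5′ difference, an alternative also chosen after seeing the data. Over both days these values were -0.61 to 0.016 and 0.046, with 0.0084 without SE day 7 replicate 1, and for the interaction -0.88 to 0.39 and 0.30, with 0.37 without SE day 7 replicate 1. Counts of probe sets between SE and HE were unsteady. On day 0, 3 became 7 with no filter, 0 with the replicate block, 0 with the arrays of those groups alone, 1 without the pools of largest GAPDH difference, and 0 to 11 with pools left out. On day 7, 0 became 10 with no filter, 3 without the pools of largest GAPDH difference, and 0 to 2 with pools left out. Over both days, 0 became 2 with no filter, 1 each with a filter at 5, quantile normalization, median centring or array weights, 3 without the pools of largest GAPDH difference, and 0 to 2 with pools left out. For the interaction, 0 became 3 and 0 to 2 under those last alternatives. Of the signalling genes 0 to 1 passed between SE and HE on day 0 with pools left out. The 8 genes most like OXTR shared 0 with those by Spearman's rho and 2 to 7 with pools left out. The cause of these changes was not tested. Of 53 named genes 46 kept their call and direction in every alternative and 0 reversed. With the replicate block PLCB1, tested only through its few high day 7 pools, passed (0.90, limma adjusted p = 0.0448), and PGRMC1 (-0.31, 0.0624), STAT2 (0.28, 0.0807) and ATG4B (0.31, 0.0546) did not. A mean over several OXTR probe sets did not apply with 1 probe set, and the alternatives that need a test were not run for OXTR in blastocysts, where its SE minus HE difference stayed between 0.00 and 0.13. The number of pools limits the precision of each value.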

Other observations

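The probe sets of lowest within-group r with OXTR were chosen after their values were seen and are given as values only. IRX3, a homeobox transcription factor, had a within-group r of -0.991 with OXTR over the 11 pools, and between -0.995 and -0.976 with any pool left out. That range comes from the same pools by which IRX3 was chosen, so it is no independent check. Both values rest mostly on the 5 pools of day 7, where OXTR varied. On day 7 its log2 signal was 7.44 in SE replicate 1 and 7.19 in HE replicate 1, where OXTR was 5.20 and 6.22. In SE replicate 2, SE replicate 3 and HE replicate 2 the IRX3 signal was 5.24, 4.90 and 5.84, where OXTR was 6.83, 7.25 and 7.48. On day 0 the IRX3 signal was 3.28 to 4.07, below the filter in all pools but SE replicates 2 and 3 (4.04 and 4.07). Its rise of 2.50 between the days (limma adjusted p = 7.42e-04) is thus measured largely from background.

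TKTL1, a transketolase-like enzyme, had a within-group r of -0.966, lay below the filter on day 0 (1.98 to 2.10) and at 3.61 to 4.73 on day 7. KRT7 is a case where the sign depends on the level at which it is read. Its r with OXTR over the 11 pools was 0.936, since both fell between the days, and its within-group r was -0.944. On day 7 KRT7 was 9.64 and 9.13 in the pair of pools with the lowest OXTR signal and 8.18 to 8.73 in the other 3.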
